A study of Mus musculus with 9 samples.

Results

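Small leucine-rich proteoglycans are secreted proteins of the extracellular matrix, and this account follows 10 of their genes in sorted cells of the embryonic mouse knee. The 10 genes were taken by family membership and matched by symbol: biglycan (Bgn), decorin (Dcn) and asporin (Aspn) of class I, lumican (Lum), fibromodulin (Fmod), prolargin (Prelp), keratocan (Kera) and osteomodulin (Omd) of class II, and osteoglycin (Ogn) and epiphycan (Epyc) of class III. They are 10 of the 54532 genes in the deposited table, and all 10 were among the 17764 genes whose mean over the libraries was at least 10 normalized counts. The knees came from E14.5 embryos that carried 2 reporters in every group: tdTomato joined to an HA-tagged Creb5 through a P2A peptide on 1 allele (Creb5 3XHA-P2A-tdTomato/+) and EGFP placed after Sox9 through an internal ribosome entry site on 1 allele (Sox9 ires-EGFP/+). Collagenase-freed cells were sorted by fluorescence into a population with EGFP alone (GFP-only), a population with tdTomato alone (RFP-only) and a population with both (double-positive). Polyadenylated RNA of each population was sequenced in bulk from 3 independent litters, numbered 1, 2 and 5, which gave 9 libraries. The deposited table is named as one without the litters numbered between 2 and 5, so these 3 may not be all that were collected. Reads assigned to genes, as recovered from the deposited counts, numbered 25199258 to 47079305 a library. Cells without a reporter signal and reporter-free embryos were not analysed here, so every group shares both modified alleles.

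Each of these proteins has a small core built from leucine-rich repeats, and most carry chondroitin or dermatan sulfate chains (class I) or keratan sulfate chains or sulfated tyrosines (class II). Several bind fibrillar collagen and set the diameter and spacing of its fibrils, and decorin and biglycan also bind growth factors such as TGF-beta. In the developing limb, epiphycan and prolargin are known from growth and articular cartilage, and decorin, fibromodulin, lumican and keratocan from tendon, ligament and other dense connective tissue. Sox9 is the transcription factor that drives cartilage formation, and Creb5 is a transcription factor of the forming joint.

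The transcripts of the 2 sorting genes followed the sort. Sox9 ranged from 22771 to 37991 normalized counts in the GFP-only libraries, from 16565 to 29767 in the double-positive libraries and from 1091 to 1891 in the RFP-only libraries. Creb5 ranged from 138 to 274 in GFP-only, from 2754 to 3408 in double-positive and from 2006 to 3531 in RFP-only libraries. The summed level of 10 cartilage markers (among them Col2a1, Acan and Matn1) lay at 1601733 to 2225699 normalized counts in GFP-only libraries, 342332 to 957131 in double-positive and 6172 to 14487 in RFP-only libraries. The summed level of 8 loose connective tissue markers ran the other way, from 3692 to 7822 in GFP-only, 17135 to 27223 in double-positive and 30691 to 37969 in RFP-only libraries. The sum of 8 joint interzone markers was 9997 to 13333 in GFP-only, 47561 to 100797 in double-positive and 34395 to 39157 in RFP-only libraries. Sfrp2, which is not limited to the interzone, gave 37.0% to 39.3%, 64.6% to 75.3% and 76.7% to 77.8% of these sums. Nog gave 33.3% to 47.8%, 0.79% to 3.64% and 1.02% to 1.63% of them. Unlike the sums, Nog was highest in GFP-only libraries, at 3327 to 6371, against 623 to 1875 in double-positive and 353 to 559 in RFP-only libraries. Gdf5, a defining interzone marker, ranged from 793 to 1385 in GFP-only, 5235 to 16771 in double-positive and 130 to 668 in RFP-only libraries. Markers of other cell types were detected as well: 9 skeletal muscle markers summed to 8662 to 33099 in RFP-only against 694 to 1905 in GFP-only and 1202 to 3255 in double-positive libraries, and 8 blood and immune markers to 2044 to 12410 in double-positive against 79 to 392 in GFP-only and 1138 to 3347 in RFP-only libraries. In RFP-only against GFP-only cells, 10 of 10 cartilage markers were lower, while 8 of 8 loose connective tissue, 8 of 9 muscle, 5 of 7 endothelial and 4 of 8 blood and immune markers were higher. Of 6 pericyte and smooth muscle markers, 5 were higher and 1 lower, and of 6 tendon markers, 4 were higher and 1 lower. Of the 8 interzone markers, 4 were higher (Prg4, Osr2, Wnt9a and Sfrp2), 3 lower (Erg, Barx1 and Nog) and Gdf5 did not pass. In double-positive against GFP-only cells, 4 of the 6 tendon markers were higher and 2 did not pass. No marker of the lists was at 0 in all 9 libraries. These are mixed cells measured in bulk, so fewer cells of a type and less RNA per cell cannot be told apart in any value below, and the part of these other cell types in the results was not tested.

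By their means, the genes had distinct patterns across the 3 populations. Epyc, Prelp and Omd were highest in GFP-only cells and lowest in RFP-only cells. Kera, Dcn and Ogn were highest in RFP-only cells, Fmod was highest in double-positive cells and Lum was lowest there. Some steps of these orders did not pass in the comparisons below. They were Omd, Dcn and Ogn in double-positive against RFP-only cells and Fmod in double-positive against GFP-only cells. Differences of Bgn and Aspn among the populations did not pass the test used, which did not pair the libraries by litter. A moderated F test over the 3 populations (limma, Benjamini-Hochberg over all tested genes, threshold 0.05) called 8 of the 10 genes, beside 17.2% of all tested genes, and left out Bgn (adjusted p = 0.384) and Aspn (adjusted p = 0.202).

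**Figure D1:**
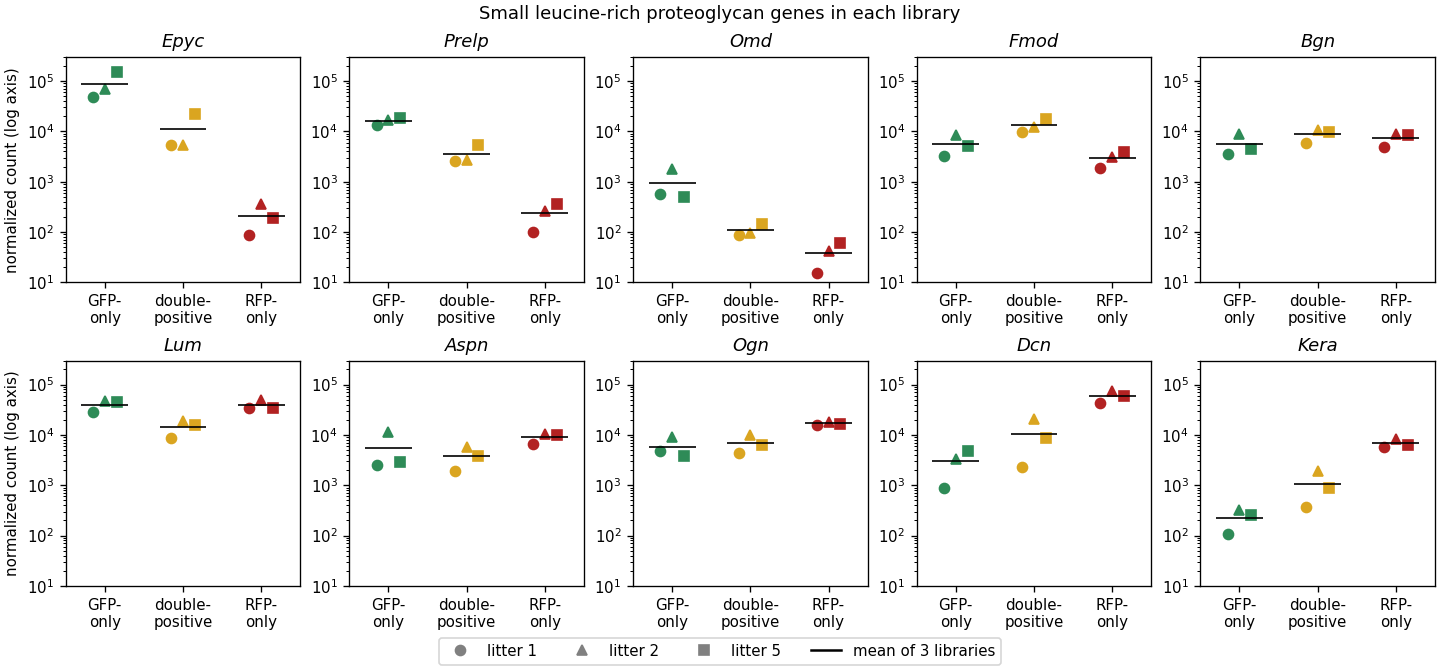
Normalized counts (log axis) of each of the 10 genes in every library, with GFP-only in green, double-positive in yellow and RFP-only in red, litters as circles (1), triangles (2) and squares (5), and a black bar for the mean of 3 libraries. Epyc, Prelp and Omd step down from left to right, and Dcn and Kera step up.

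In RFP-only against GFP-only cells, 3 of 10 members were higher, 3 were lower and 4 did not pass. Over all tested genes, 11.8% were called higher and 8.48% lower in this comparison. Relative to GFP-only cells, double-positive cells had 1 member higher and 4 lower, where 5.27% of tested genes were called higher and 3.02% lower. Relative to RFP-only cells, double-positive cells had 3 members higher and 2 lower, where 1.8% of tested genes were called higher and 1.05% lower. With a library left out, the first comparison kept 3 or 4 members in each direction. The second had 0 to 2 higher and 2 to 4 lower, and the third 2 or 3 higher and 0 to 4 lower. The libraries whose removal changed a call are named with each gene. Some of them lie outside the comparison. Leaving those out changes the shared estimate of the spread and the adjustment, but not the log2 difference. The 3 comparisons share their samples in pairs, so their values are set side by side below and are not independent of each other. The median log2 difference of the 10 genes was 0.21 for RFP-only against GFP-only, -0.03 for double-positive against GFP-only and -0.53 for double-positive against RFP-only, beside medians over all tested genes of 0.05, 0.04 and -0.01. Log2 differences below are on the log2(normalized count + 1) scale, with the standard error of the fit and 3 libraries a group. Where the libraries of 2 populations do not overlap, the same direction in 3 of 3 litters follows from that and adds nothing to it.

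**Figure D2:**
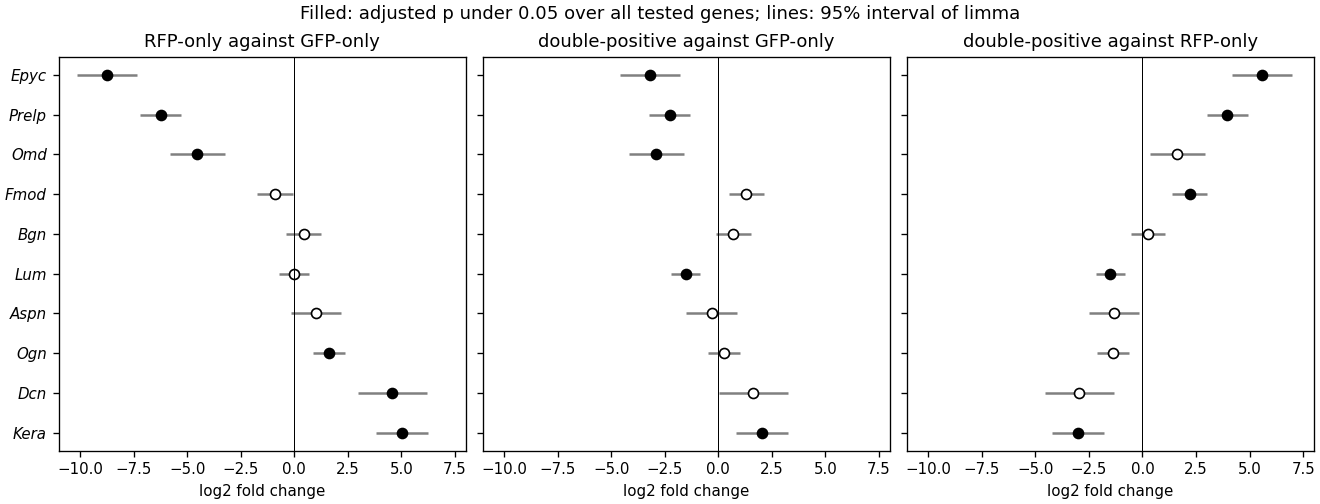
Log2 fold change (x axis) of each member in the 3 comparisons, with the 95% interval of the limma fit as a line and a filled point where the adjusted p over all tested genes was under 0.05. Members are ordered from Epyc, Prelp and Omd, which were lower in RFP-only than GFP-only cells, to Dcn and Kera, which were higher.

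Epiphycan, a class III member with dermatan or chondroitin sulfate chains that is found in growth cartilage, spanned the widest range. Epyc reached 47264, 67970 and 149855 normalized counts in GFP-only cells from litters 1, 2 and 5, 5363, 5285 and 22378 in the double-positive libraries and 87.6, 364 and 186 in the RFP-only libraries. Every GFP-only library lay above every double-positive library and every one of those above every RFP-only library. Epyc was lower in RFP-only than GFP-only cells by a log2 difference of -8.75 ± 0.64 (SE, adjusted p = 1.05e-05), lower in double-positive than GFP-only cells by -3.19 ± 0.64 (adjusted p = 0.0123) and above the RFP-only level in double-positive cells by 5.56 ± 0.64 (adjusted p = 0.000861), each in 3 of 3 litters. Among the double-positive libraries, that of litter 5 stood apart with 22378 counts, and it also had the highest cartilage marker sum of the 3 (957131, against 373831 in litter 1 and 342332 in litter 2) and the lowest interzone marker sum (47561, against 100797 and 78751). The difference between double-positive and GFP-only cells no longer passed without the litter 1 double-positive library (adjusted p = 0.0524) or of litter 2 (adjusted p = 0.0625).

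Prolargin, a class II protein that anchors basement membranes and cartilage matrix through heparan sulfate and collagen, followed the same order. Prelp stood at 13241, 17135 and 18660 normalized counts in GFP-only libraries, 2619, 2715 and 5249 in double-positive and 99.8, 266 and 365 in RFP-only libraries. The 3 populations did not overlap, and litter 5 was the highest within each. The log2 difference was -6.24 ± 0.43 for RFP-only against GFP-only (adjusted p = 7.87e-06), -2.27 ± 0.43 for double-positive against GFP-only (adjusted p = 0.00992) and 3.96 ± 0.43 for double-positive against RFP-only (adjusted p = 0.000681). All 3 calls held in each of the 9 fits that left out a library.

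Osteomodulin, a class II protein of mineralized matrix also called osteoadherin, was the lowest member per kilobase of exon in double-positive and RFP-only cells. Omd measured 580, 1767 and 502 normalized counts in GFP-only libraries, 88.4, 97.5 and 144 in double-positive and 15.2, 41.9 and 60.2 in RFP-only libraries. Again no library of a population overlapped with those of another, and the litter 2 GFP-only library was the highest of all. Omd was lower in RFP-only than GFP-only cells by -4.52 ± 0.59 (log2, adjusted p = 0.000407) and lower in double-positive than GFP-only cells by -2.89 ± 0.59 (adjusted p = 0.0135), in 3 of 3 litters in both. Removing a double-positive library, that of litter 1 (adjusted p = 0.0502) or litter 2 (adjusted p = 0.056), ended the latter call. Set against RFP-only cells, the double-positive log2 difference was 1.63 ± 0.59 and did not pass (adjusted p = 0.209). Of 6 tested perichondrium and osteoblast markers, 5 were lower in RFP-only than GFP-only cells, and the other, Col1a1, did not pass. Within GFP-only cells these markers did not share an order over litters 1, 2 and 5: Ibsp stood at 11551, 70669 and 31807 normalized counts, Alpl at 9291, 21205 and 4697, and Spp1 at 3709, 32112 and 97922. Their part in the Omd values was not tested.

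Keratocan, a class II keratan sulfate proteoglycan best known from the cornea and also found in tendon, showed the opposite order. Kera stood at 106, 316 and 258 normalized counts in GFP-only libraries, 361, 1907 and 879 in double-positive and 5790, 8258 and 6438 in RFP-only libraries. The populations did not overlap, with the RFP-only libraries within a narrow band. Kera was higher in RFP-only than GFP-only cells by a log2 difference of 5.03 ± 0.55 (adjusted p = 0.000129), a call held in each fit that left out a library. It was higher in double-positive than GFP-only cells by 2.04 ± 0.55 (adjusted p = 0.0438) in 3 of 3 litters, and lower in double-positive than RFP-only cells by -2.99 ± 0.55 (adjusted p = 0.0148). The first of these lay close to the threshold: 7 of the 9 libraries, left out in turn, ended the call, with adjusted p values up to 0.153 (without the litter 2 double-positive library), and it held without the litter 2 GFP-only library or the litter 1 double-positive library. Among the 7 were the RFP-only libraries, which are not in this comparison. Without any of them the log2 difference stayed at 2.04 (adjusted p = 0.0656 to 0.0677). The call against RFP-only cells ended when the litter 5 double-positive library was removed (adjusted p = 0.0574) or the litter 2 RFP-only library (adjusted p = 0.0771) or that of litter 5 (adjusted p = 0.0568).

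Decorin, a class I dermatan sulfate proteoglycan that coats collagen fibrils and binds TGF-beta, ranked just below Lum per kilobase in RFP-only cells. Dcn stood at 896, 3380 and 4773 normalized counts in the GFP-only libraries, at 2315, 20779 and 8788 in the double-positive ones and at 43784, 75820 and 59001 in the RFP-only ones. All RFP-only libraries exceeded all others, while the GFP-only and double-positive ranges overlapped. The log2 difference was 4.57 ± 0.74 for RFP-only against GFP-only (adjusted p = 0.00142, 3 of 3 litters). It was 1.62 ± 0.74 for double-positive against GFP-only (adjusted p = 0.199), which did not pass, and -2.95 ± 0.74 for double-positive against RFP-only (adjusted p = 0.0598), which passed with litter as a fixed replicate block (adjusted p = 0.00873) and not with litter as a random block (adjusted p = 0.0536). The random block used a single within-litter correlation over all genes, 0.017, so here and below that fit nearly repeated the unpaired one. Leaving out the litter 2 double-positive library, the highest of its group, also brought the difference from RFP-only cells past the threshold (-3.69, adjusted p = 0.024). So did leaving out the litter 1 GFP-only library (adjusted p = 0.0321) or that of litter 5 (adjusted p = 0.0391). Those GFP-only libraries are not in this comparison, and the difference stayed at -2.95 without them.

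Osteoglycin, a class III member also called mimecan that takes part in collagen fibril growth, reached 15603, 18247 and 16777 normalized counts in RFP-only libraries. In GFP-only libraries Ogn stood at 4686, 8900 and 3826, and in double-positive libraries at 4335, 9946 and 6314. The RFP-only libraries lay above all others and the other populations overlapped, with litter 2 the highest in both. Ogn was higher in RFP-only than GFP-only cells by a log2 difference of 1.63 ± 0.34 (adjusted p = 0.00673, 3 of 3 litters), and the log2 difference of double-positive from GFP-only cells was 0.26 ± 0.34 (adjusted p = 0.678). Double-positive cells differed from RFP-only cells by -1.38 ± 0.34 (adjusted p = 0.0604), and this passed with litter as a fixed replicate block (adjusted p = 0.0239) and not as a random block (adjusted p = 0.0552). It also passed without the litter 2 double-positive library (-1.69, adjusted p = 0.0326), and without the litter 2 GFP-only library (adjusted p = 0.0297) or that of litter 5 (adjusted p = 0.0271). Those GFP-only libraries are not in this comparison, and the difference stayed at -1.38 without them.

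Fibromodulin, a class II keratan sulfate proteoglycan of tendon and cartilage that binds collagen and lysyl oxidase, was highest in double-positive cells. Fmod measured 3261, 8563 and 5173 normalized counts in GFP-only libraries, 9890, 12199 and 17989 in double-positive and 1881, 3053 and 3872 in RFP-only libraries. Each double-positive library exceeded every library of the other populations, and the GFP-only and RFP-only ranges overlapped. The excess over RFP-only cells was 2.20 ± 0.37 (log2, adjusted p = 0.00987, 3 of 3 litters), which no longer passed once the litter 5 double-positive library was removed (1.97, adjusted p = 0.0531). The excess over GFP-only cells was 1.30 ± 0.37 in 3 of 3 litters and missed the threshold (adjusted p = 0.0561), though it passed with litter as a fixed replicate block (adjusted p = 0.0189, against 0.0517 as a random block) and after removal of the litter 2 GFP-only library (1.66, adjusted p = 0.0212). RFP-only and GFP-only cells differed by -0.90 ± 0.37 (adjusted p = 0.115). That difference passed with the fixed replicate block (adjusted p = 0.0423, against 0.108 with the random block) and after removal of the litter 1 GFP-only library (-1.24, adjusted p = 0.0355).

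Lumican, a class II keratan sulfate proteoglycan of cornea and connective tissue, was lowest in double-positive cells. Lum stood at 28733, 46422 and 44951 normalized counts in GFP-only libraries, 8561, 19154 and 15463 in double-positive and 34768, 48383 and 34567 in RFP-only libraries. Every double-positive library lay below all 6 others, while GFP-only and RFP-only libraries overlapped. Lum was lower in double-positive than GFP-only cells by a log2 difference of -1.52 ± 0.31 (adjusted p = 0.0138) and lower than in RFP-only cells by -1.51 ± 0.31 (adjusted p = 0.0273), each in 3 of 3 litters. The first call held in every fit that left out a library. The second ended when the litter 1 double-positive library (-1.17, adjusted p = 0.102) or that of litter 5 (adjusted p = 0.0726) was removed, or the litter 1 RFP-only library (adjusted p = 0.07), that of litter 2 (adjusted p = 0.133) or that of litter 5 (adjusted p = 0.0802). RFP-only and GFP-only cells differed by -0.01 (adjusted p = 0.981), with a 95% interval of -0.69 to 0.67.

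The remaining class I genes passed in no comparison. Biglycan, the close relative of decorin, had Bgn values of 3614, 9026 and 4420 normalized counts in GFP-only libraries, 5973, 10568 and 9717 in double-positive and 4852, 8764 and 8466 in RFP-only libraries, so the 3 ranges overlapped. Its log2 differences were 0.44 ± 0.37 for RFP-only against GFP-only (adjusted p = 0.42), 0.70 ± 0.37 for double-positive against GFP-only (adjusted p = 0.265) and 0.26 ± 0.37 for double-positive against RFP-only (adjusted p = 0.919). The last 2 differences were above 0 in 3 of 3 litters. With litter as a fixed replicate block in limma, neither passed (adjusted p = 0.0936 and 0.767). Asporin, a class I protein without a glycosaminoglycan chain that binds TGF-beta and collagen, had Aspn values of 2508, 11152 and 2948 in GFP-only, 1940, 5760 and 3833 in double-positive and 6498, 10620 and 9733 in RFP-only libraries. The RFP-only libraries lay above all double-positive libraries, but the litter 2 GFP-only library was the highest of all 9. The log2 differences of Aspn were 1.01 ± 0.53 for RFP-only against GFP-only (adjusted p = 0.204), -0.32 ± 0.53 for double-positive against GFP-only (adjusted p = 0.747) and -1.32 ± 0.53 for double-positive against RFP-only (adjusted p = 0.282). Without the litter 2 GFP-only library, the first became 1.69 and passed (adjusted p = 0.0157). Aspn was lower in double-positive than RFP-only cells in 3 of 3 litters. This difference did not pass with litter as a fixed replicate block in limma (adjusted p = 0.0719).

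Levels of different genes were compared per kilobase of annotated exon, and each gene was expressed as a share of the sum over the 10 genes in its library. That summed level was 63677 ± 24723 per kilobase in GFP-only, 23267 ± 8661 in double-positive and 41863 ± 8126 in RFP-only libraries (mean ± SD, n = 3), and 38784, 64022 and 88225 for litters 1, 2 and 5 of the GFP-only population. In GFP-only cells Epyc made up 51.8% ± 13.0 and Lum 26.9% ± 5.28 of the sum (SD, n = 3), and these ranges of level overlapped in the order. Prelp followed at 7.57% ± 1.80, below every Lum library, and the next genes down to Omd (Aspn, Ogn, Fmod, Bgn, Dcn) each overlapped with its neighbour, with Kera lowest at 0.15%. In double-positive cells no gene dominated: Lum held 25.5% ± 3.94, Fmod 18.2% ± 4.29, Epyc 17.6% ± 11.1 and Ogn 11.8% ± 3.15, and each gene in the order down to Kera overlapped with the next, with Omd below all.

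In RFP-only cells the order was sharper. Lum held 38.4% ± 3.19 of the summed level per kilobase, Dcn 24.1% ± 2.10, Ogn 15.9% ± 1.79, Aspn 9.04% ± 1.11 and Kera 7.16% ± 0.19 (SD, n = 3). The levels of the first 4 of these genes did not overlap between neighbours, while Aspn and Kera did. Epyc, Prelp and Omd fell to 0.19%, 0.16% and 0.04%. With the longest annotated transcript as the length, the share of Bgn was higher in each population (3.45% in place of 1.55% in GFP-only, 13.1% in place of 6.39% in double-positive and 5.95% in place of 2.86% in RFP-only cells), since its annotated exons together are much longer than its longest transcript.

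**Figure D3:**
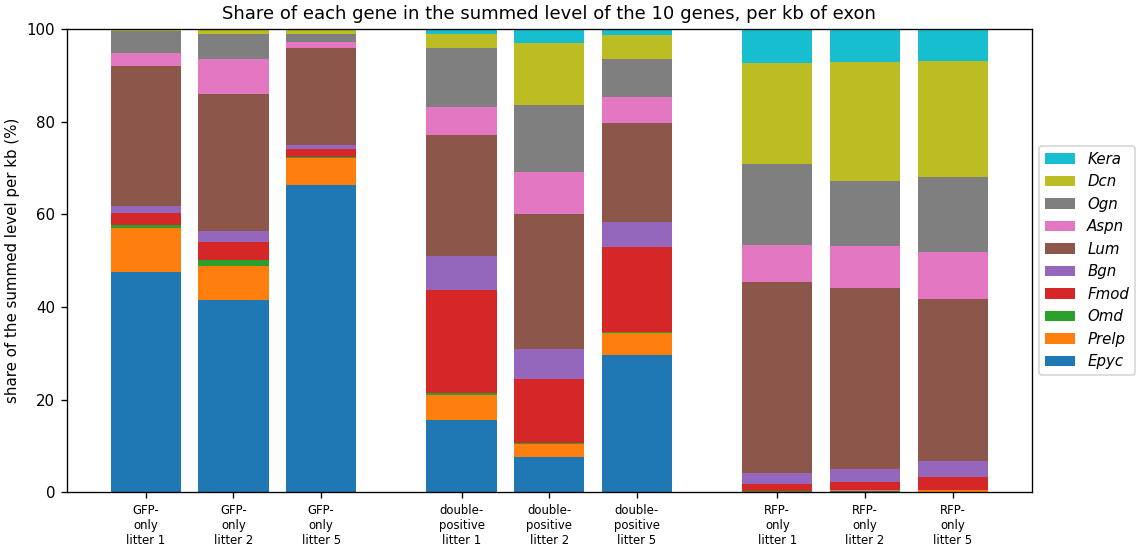
Stacked bars give the share (%) of each of the 10 genes in their summed normalized count per kilobase of exon, for each of the 9 libraries. Epyc (blue) fills 41.5% to 66.3% of the GFP-only bars, and Lum (brown), Dcn (olive) and Ogn (grey) fill most of the RFP-only bars.

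Of the 10 genes, 9 lie beside other members of the family (GRCm38, GENCODE M21). Dcn (chr10:97479609-97518143), Lum (chr10:97565128-97572703), Kera (chr10:97606879-97613692) and Epyc (chr10:97644068-97682454) lie on the plus strand of chromosome 10 within 202.8 kb. Aspn (chr13:49544443-49567565), Omd (chr13:49582462-49592822) and Ogn (chr13:49608046-49624501) lie on the plus strand of chromosome 13 within 80.1 kb. Prelp (chr1:133910304-133921414, minus strand) and Fmod (chr1:134037254-134048277, plus strand) are 115.8 kb apart on chromosome 1, and Bgn (chrX:73483602-73495933) is alone on the X chromosome. No protein-coding gene lies between neighbours within these 3 clusters.

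Adjacent members of these clusters had different patterns. Members further apart in a cluster could be alike: the Pearson correlation over the 9 libraries was 0.983 for Dcn with Kera and 0.872 for Aspn with Ogn. Kera and Epyc, 30.4 kb apart, had a mean log2 ratio (Kera over Epyc) of -8.41 ± 0.74 in GFP-only, -3.18 ± 1.67 in double-positive and 5.39 ± 0.78 in RFP-only libraries (SD, n = 3). The ratio of Omd to Ogn, 15.2 kb apart, went from -2.57 ± 0.37 through -5.73 ± 0.66 to -8.77 ± 0.95 on the same scale. The ratio of Prelp to Fmod went from 1.50 ± 0.55 through -2.08 ± 0.20 to -3.85 ± 0.45. For these 3 pairs, as for Dcn with Lum, Lum with Kera and Aspn with Omd, the 3 populations did not overlap in the ratio. Without overlap, the two-sided exact permutation test can only give p = 0.1, the smallest that 3 libraries against 3 allow. It gave this value for each of the 6 pairs in each comparison and so adds nothing to the ranges. Ratios of other gene pairs were not taken, so the lack of overlap is not shown to be particular to neighbours.

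**Figure D4:**
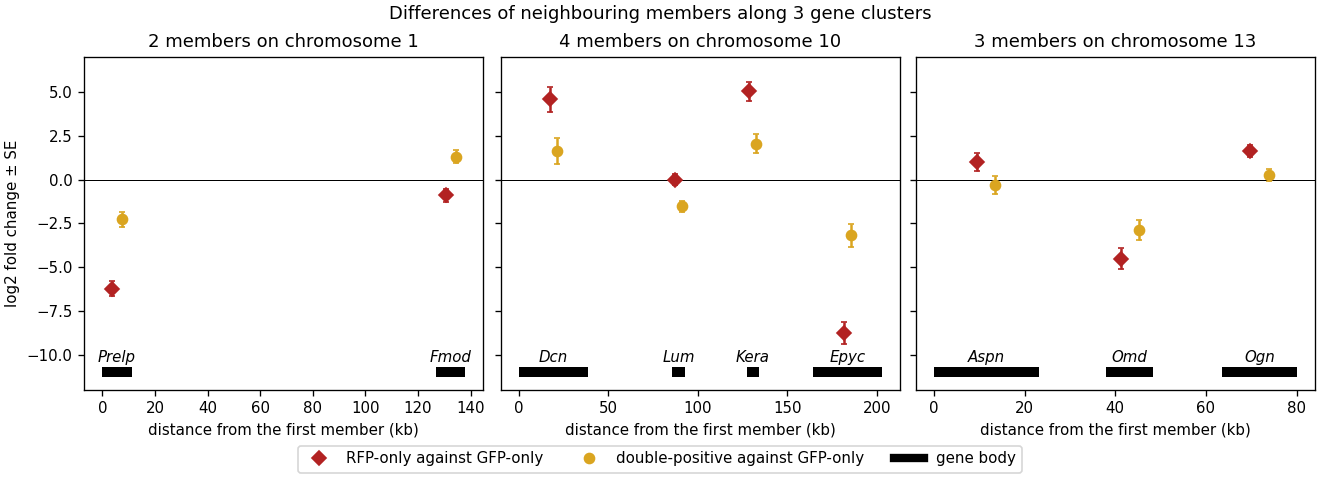
Log2 fold change ± SE of each member against the distance (kb) from the first member of its cluster, with black bars for the gene bodies, red diamonds for RFP-only against GFP-only and yellow circles for double-positive against GFP-only. Within the cluster of 4, Dcn and Kera lie above 0 and Epyc at -8.75 in the first of these comparisons.

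Other genes overlap some members on the opposite strand, and none of the sources used here gives the strand setting of the counting, so shared reads cannot be assigned. Cenpp spans Aspn, Omd and Ogn but shares 7 exon bases with Aspn and 0 with the others, and it reached at most 872 normalized counts in a library. The noncoding Gm10754 shares 1041 exon bases with Epyc and had means of 265, 63.8 and 4.91 in GFP-only, double-positive and RFP-only libraries. Gm15851 shares 350 exon bases with Prelp and reached at most 14.9.

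Sequences before RefSeq starts are shown for the 2 genes with the steepest decline from GFP-only to RFP-only cells, Epyc and Prelp, and for Fmod and Ogn, which were highest in other populations. Each window holds the 250 bases before an annotated start in RefSeq (GRCm38.p6), 5′ to 3′ on the gene's strand, and capitals mark AACAAT or its reverse complement ATTGTT, the core that Sox family factors recognize.
Epyc, first start, chr10:97643818-97644067, plus strand: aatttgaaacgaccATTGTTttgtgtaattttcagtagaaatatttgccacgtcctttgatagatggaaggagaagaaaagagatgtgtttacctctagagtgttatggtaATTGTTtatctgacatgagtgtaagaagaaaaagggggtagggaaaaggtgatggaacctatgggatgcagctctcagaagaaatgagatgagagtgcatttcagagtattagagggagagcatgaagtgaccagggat
Epyc, second start, chr10:97646853-97647102, plus strand: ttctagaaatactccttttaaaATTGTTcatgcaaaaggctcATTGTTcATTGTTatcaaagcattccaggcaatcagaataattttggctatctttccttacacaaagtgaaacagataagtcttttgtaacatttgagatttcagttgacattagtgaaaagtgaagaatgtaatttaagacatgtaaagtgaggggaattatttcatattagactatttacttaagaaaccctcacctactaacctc
Prelp, chr1:133921402-133921651, minus strand: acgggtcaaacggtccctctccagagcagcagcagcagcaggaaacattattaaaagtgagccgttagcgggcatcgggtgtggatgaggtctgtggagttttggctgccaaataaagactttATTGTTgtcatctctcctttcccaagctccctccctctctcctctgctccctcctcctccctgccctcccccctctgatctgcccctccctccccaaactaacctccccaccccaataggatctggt
Fmod, chr1:134037004-134037253, plus strand: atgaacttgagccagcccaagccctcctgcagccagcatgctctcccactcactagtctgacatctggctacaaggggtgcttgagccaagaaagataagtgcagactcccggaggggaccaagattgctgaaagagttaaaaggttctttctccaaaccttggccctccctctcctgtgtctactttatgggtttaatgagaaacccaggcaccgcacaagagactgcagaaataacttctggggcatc
Ogn, chr13:49607765-49608014, plus strand: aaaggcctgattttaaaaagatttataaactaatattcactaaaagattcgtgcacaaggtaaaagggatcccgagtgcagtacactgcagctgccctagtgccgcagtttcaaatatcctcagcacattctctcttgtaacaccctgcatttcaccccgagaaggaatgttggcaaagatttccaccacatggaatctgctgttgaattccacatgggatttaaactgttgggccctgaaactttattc
The first Epyc window holds 2 matches, the second holds 3, and Prelp holds 1, which begins 127 bases before the start. Windows were found for 8 of the 10 genes, all but Dcn and Lum, and with 2 for Epyc the core lay in 5 of 9 windows (Prelp, Kera, Aspn and both of Epyc), beside 9.42% of 32851 windows of all genes. RefSeq and GENCODE starts differ for some of these genes: the Kera window lies with all 250 bases in GENCODE exons of Kera, and the second Epyc window lies inside the GENCODE gene, with 14 bases in exons. The letters searched were chosen after the members' windows had been seen. Kera, which holds 2 matches to the Sox core, was lowest in GFP-only cells. Omd, which was highest in GFP-only cells, holds 0 matches. Aspn, which holds 1, passed in no comparison. The core is rich in A and T, and the GC content was 39.2% and 31.2% in the Epyc windows, 30.0% in that of Aspn, 42.4% in that of Kera and 55.6% in that of Prelp, beside a median of 52.4% over all windows. The cAMP response element core TGACG, searched on both strands, was in 0 of the 9 windows and in 17.8% of all windows. The AP-1 site TGANTCA was in 0 of the 9 and in 6.75% of all windows. The E-box CANNTG was in 5 of the 9 and 66.2% of all windows, and the TATA box TATAAA in 2 of the 9 and 12.4% of all windows, both searched on both strands. A match is a string of letters in these windows and shows no binding.

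Within populations, the members followed the litters, a pattern that was noticed in these values and then counted. Litter 1 was the lowest in all 3 populations for 6 of the 10 genes (Bgn, Dcn, Aspn, Fmod, Prelp and Kera), beside 5.69% of all tested genes. Litter 2 was the highest in all 3 populations for 5 of the 10 (Bgn, Aspn, Lum, Kera and Ogn), beside 4.87% of tested genes, and litter 5 for Prelp alone, beside 5.85%. In a fit with litter as a term, 0 of the 10 genes passed for litter after adjustment (limma, Benjamini-Hochberg; 1 gene of 17764 passed), while 9 of the 10, all but Omd, had an unadjusted p under 0.05, beside 7.74% of tested genes. The deviations were widest for Dcn in double-positive cells, from -1.70 in litter 1 to 1.47 in litter 2 on the log2 scale, and narrowest for Ogn in RFP-only cells, from -0.11 to 0.12. Among tendon markers, the general fibril collagen Col1a2 moved with them in part, at 50751, 147658 and 15653 normalized counts in GFP-only libraries, 41512, 115714 and 73030 in double-positive and 165150, 201612 and 188242 in RFP-only libraries of litters 1, 2 and 5. Scx, a defining tendon marker, stood at 1006, 1106 and 920 in GFP-only cells, 3123, 3944 and 2012 in double-positive cells and 2725, 2615 and 2477 in RFP-only cells of the same litters. Tnmd was lowest in litter 1 in each population, at 402, 732 and 558 in GFP-only, 1168, 4484 and 2743 in double-positive and 1764, 3139 and 3863 in RFP-only cells. Of the other tendon markers, Thbs4 was lowest in litter 1 in GFP-only and double-positive cells. Mkx and Fibin were lowest in litter 1 in neither of these populations. Their part in these differences was not tested.

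**Figure D5:**
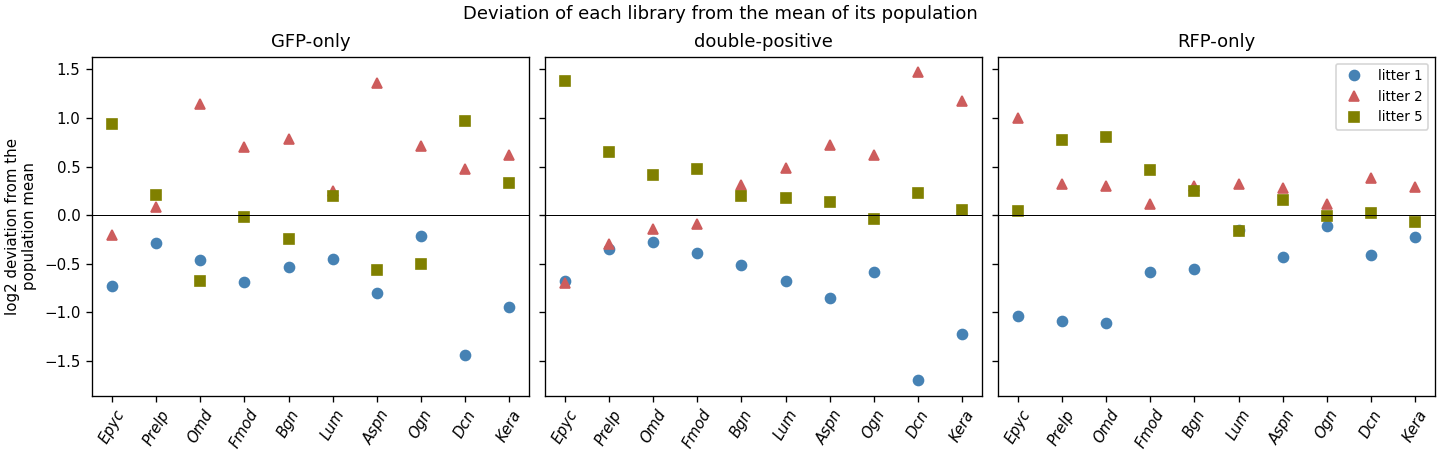
Deviation (log2) of each library from the mean of its population, by gene and litter (blue circles for 1, red triangles for 2, olive squares for 5). Litter 1 lies below 0 for every gene in each population, and litter 2 is highest in each for Bgn, Lum, Aspn, Ogn and Kera.

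The genes most like each member were found by Pearson correlation of log2 values over the 9 libraries among 11871 genes, as a description. The libraries fall into 3 populations of shared litters, so any gene with the same order of populations scores high. Epyc was most like Col11a1, a cartilage fibril collagen (r = 0.997), and Matn3, a cartilage matrilin (r = 0.994), and Prelp most like Matn3 (r = 0.997) and Chst11, a chondroitin sulfotransferase (r = 0.995). Omd was closest to Bmp6 (r = 0.979) and Hps1 (r = 0.975), Kera to Nbl1 (r = 0.994) and Tfpi (r = 0.993), and Dcn to Ccl11 (r = 0.982) and C1qtnf2 (r = 0.982). Ogn was closest to Rgl1 and Spats2l (r = 0.987 for both), and Aspn to Srpx2 (r = 0.974) and Olfml3 (r = 0.955). Lum was closest to Lsp1 (r = 0.963) and Cd55 (r = 0.957). The nearest genes were less alike for Fmod, with Trabd2b (r = 0.954) and Hyal1 (r = 0.916), and for Bgn, with Ccn4 (r = 0.901) and Naprt (r = 0.898).

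Other genes of the same superfamily of leucine-rich repeat proteins were listed as 9 genes, of which 7 could be tested. In RFP-only against GFP-only cells 3 of the 7 were lower and the other 4 did not pass. Chadl, chondroadherin-like, was lower by a log2 difference of -3.75 ± 0.28 (adjusted p = 1.12e-05) and Chad, chondroadherin, a cell-binding protein of cartilage, by -9.21 ± 0.72 (adjusted p = 1.42e-05), both in 3 of 3 litters. Both were higher in double-positive than RFP-only cells, by 3.11 ± 0.28 (adjusted p = 0.000162) and 6.82 ± 0.72 (adjusted p = 0.000532). In double-positive against GFP-only cells 0 of the 7 passed with limma, 3 had an unadjusted p under 0.05, and 1 passed with DESeq2.

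Among 13 collagens that these proteins bind or that share their fibrils, 7 were higher and 3 lower in RFP-only than GFP-only cells, with a median log2 difference of 1.91. The lower genes were those of cartilage fibrils: Col2a1 differed by -7.40 ± 0.45 and Col11a1 by -5.09 ± 0.33, and the higher genes were led by Col6a1 (2.70 ± 0.44, adjusted p = 0.00149) of microfibrils and Col5a1 (2.12 ± 0.35, adjusted p = 0.00164) of connective tissue fibrils. In double-positive against GFP-only cells 2 collagens were higher and 2 lower, and the first count ran from 0 (without the litter 2 double-positive library) to 5 (without the litter 2 GFP-only library). In double-positive against RFP-only cells 3 were higher and 10 did not pass.

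Enzymes that build the chains were tested as 21 genes for the linker and for chondroitin and dermatan sulfate and as 13 genes for keratan sulfate and sulfate supply. Of the 21, 8 were lower in RFP-only than GFP-only cells, with a median log2 difference of -0.47 over the 21, and the other 13 did not pass. The leading genes were Chst11 (-4.96 ± 0.38) and Xylt1, a xylosyltransferase that starts the chain (-3.69 ± 0.33). In double-positive against GFP-only cells 6 were lower, a count of 2 without the litter 1 GFP-only library or the litter 1 or 2 double-positive library, and in double-positive against RFP-only cells 3 were higher. Of the 13 keratan sulfate and sulfation genes, 4 were lower and 2 higher in RFP-only than GFP-only cells. The lower genes were led by Papss2, which makes the sulfate donor (-4.82 ± 0.30), and Slc35b2, which carries it into the Golgi (-1.97 ± 0.22). The higher genes were the sulfotransferase Chst2 (1.46 ± 0.36, adjusted p = 0.0153) and the galactosyltransferase B4galt4 (0.88 ± 0.26, adjusted p = 0.0331), and neither call remained without the litter 2 RFP-only library or of litter 5.

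Of 13 tested proteases and enhancers that process or cleave these proteins, 6 were higher and 1 lower in RFP-only than GFP-only cells. Adamts5, an aggrecanase, was higher by 3.57 ± 0.53 (log2, adjusted p = 0.000918) and Htra1, a serine protease, by 1.61 ± 0.35 (adjusted p = 0.00773). The lower gene was Pcolce2, a procollagen C-proteinase enhancer, at -6.28 ± 0.45. Of 16 ligands and receptors, 5 were higher and 3 lower. The receptor Tlr2 (2.20 ± 0.26) and the TGF-beta coreceptor Tgfbr3 (2.71 ± 0.33) led the higher genes, and Ccn2 (-2.65 ± 0.57) and Tgfb1 (-1.39 ± 0.39, adjusted p = 0.0259) led the lower ones. These last counts fell to 3 higher without the litter 1 or 2 GFP-only library or the litter 2 or 5 RFP-only library, and to 1 lower without the litter 2 GFP-only library or the litter 1 or 5 RFP-only library. Tlr2 is also carried by blood and immune cells, whose marker sums differed between populations as given above.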

How the data were processed

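Bulk libraries of polyadenylated RNA from sorted knee cells were prepared by Nextera XT (per the labels' protocols). FastQC, STAR, Salmon, DESeq2 and mm10 are named in the submitters' processing notes without their roles. The counting rule, gene models and strand setting are not given in the sources used here. The authors deposited normalized counts (a signal per gene and library). The smallest nonzero value of a library was taken as the value of 1 read. All nonzero values were whole multiples of it, within 0.001, which gave back the reads assigned to each gene. No replicate pair was closer than 46.6 chi-square per degree of freedom. Symbols came from GENCODE M21, which matched 54495 of the 54532 identifiers. The 10 genes, the other lists and the tests were chosen with earlier results of these data known.

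The values were tested with limma 3.58.1 (R 4.3.3) with a trend, on log2(normalized count + 1) of genes with a mean of at least 10, all 9 libraries in 1 fit, two-sided. Benjamini-Hochberg adjustment ran over all 17764 tested genes, with a threshold of 0.05. The scripts were tested on simulated data. All 10 genes are described in each comparison, and from other lists at most 2 genes a direction with the smallest adjusted p. Lengths are unions of annotated exons.

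The labels give the replicate number as the litter, so the numbers pair the samples. The median correlation of deviations from group means was 0.10 for 9 pairs of libraries of the same litter and -0.04 for 18 pairs of different litters. Litter as a replicate block (fixed or random), other pseudocounts, filters, scalings and weights, leaving out each library, and count tests on the recovered reads (DESeq2 1.42.0, edgeR 4.0.16) were alternatives.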

Additional observations from a re-analysis of the deposited data

How the results depend on the processing

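Of 690 log2 differences of members recomputed under the alternatives, 619 kept direction and side of the threshold, 26 lost the call, 32 gained it and 13 changed sign, all from uncalled values. The sign changes were Lum in RFP-only against GFP-only cells (0.0124 with TMM scaling, 0.55 with quantile normalization, 0.0037 with edgeR, 0.0269 with edgeR and the replicate block, and -0.24 to 0.11 with a library left out), Ogn (-0.0503 with array weights, and -0.0521 to 0.61 with a library left out) and Aspn (-0.71 to 0.36 with a library left out) in double-positive against GFP-only cells, and Bgn in double-positive against RFP-only cells (-0.0197 to 0.51 with a library left out). Members higher in double-positive than GFP-only cells numbered 2 with a pseudocount of 5, with litter as a fixed replicate block and with edgeR and that block, 3 with DESeq2, and 0 without a filter, without the trend or with 2 populations in the fit. Members lower in double-positive than RFP-only cells numbered 4 with a pseudocount of 5, quantile normalization, the fixed replicate block, array weights, 2 populations, edgeR with the block or DESeq2, and 0 without the trend. Litter as a fixed replicate block changed the calls of Fmod, Dcn and Ogn given above and no other member's, and litter as a random block changed no member's call. With its single within-litter correlation of 0.017, the random block was close to the unpaired fit and could hardly change a call. Over all genes, the calls for double-positive against GFP-only cells were 1472, with 740 from 2 populations and 2780 from DESeq2. Those against RFP-only cells were 506, with 1545 from array weights, 1068 from 2 populations and 1152 from DESeq2, and genes differing among the 3 populations (F test) numbered 3050, or 4653 with array weights. With a library left out, the ranges were 2202 to 3723 for RFP-only against GFP-only (lowest without RFP-only litter 5), 637 to 1582 (lowest without double-positive litter 2) and 216 to 1070 (lowest without double-positive litter 1, highest without GFP-only litter 5) for the double-positive comparisons, and 1945 to 3356 for the F test (lowest without RFP-only litter 5). The members counted as lower in double-positive cells then ranged from 2 to 4 against GFP-only and from 0 to 4 against RFP-only cells, and those higher against GFP-only from 0 to 2. The fewest reads behind a value were 20, for Omd, and 115 or more for each of the other genes.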
